A study of Mus musculus with 4 samples.

Results

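The genes described here are 31 antiviral genes that type I interferon switches on, measured in mouse heart cells after treatment with an agonist antibody against CD40, a receptor on macrophages, dendritic cells and B cells. A list of 33 symbols was looked up among the 32285 gene rows, and 31 had a row in both libraries. The other two, Mx1 and Mx2, were not analysed here. The anti-CD40 library came from C57BL6J mice given anti-CD40 agonist antibody and the isotype library from C57BL6J mice given rat IgG, with the hearts of 4 mice pooled into 1 library per group. Hearts were perfused, the atria were removed, the tissue was digested for 20 minutes, and CD45+ DAPI- cells were sorted, where CD45 marks leukocytes and DAPI marks dead cells. The design text names DRAQ5, a DNA stain, in place of CD45. Dose, duration, sex and age were not given in the sources used here.

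Type I interferons (the interferon-alpha proteins and interferon-beta) bind a receptor built from Ifnar1 and Ifnar2. The receptor's kinases Jak1 and Tyk2 then activate transcription factors, Stat2 with its partner Irf9 among them, that bind a promoter element called the interferon-stimulated response element (ISRE). Interferon-gamma uses another receptor and acts through a promoter element called the gamma-activated site (GAS). Gbp2, a guanylate-binding protein, and Cxcl9, a chemokine for T cells, respond strongly to interferon-gamma and serve as the reference genes. Many of the 31 genes also respond to interferon-gamma to some degree, so their levels alone do not name the interferon.

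The promoters are shown first, because the ISRE and the GAS can be looked for in them. Of the 31 genes, 25 had an entry in the RefSeq promoter table (GRCm38.p6). In the 250 bases before the start site, the ISRE letters (GAAA, then 2 bases of any kind, then GAAA, searched on both strands) were present for 11 of the 25 genes, against 3.46% of the 27025 genes in the table. These were Bst2, Ifit1, Ifit3, Ifit3b, Isg15, Oas1a, Oas1g, Oas3, Phf11b, Rsad2 and Trim30a. The GAS letters (TTCNNNGAA, which read the same on both strands) were present for 6 of the 25, namely Bst2, Eif2ak2, Ifit2, Isg20, Oas1a and Samhd1, against 8.13% of the 27025 genes. A match is a string of letters and was not tested as a binding site. The promoters of 6 genes are printed, 5′ to 3′ along the gene's own strand, ending at the base before the start site, with each motif match in capitals. Isg15, Ifit1, Ifit3 and Ifit3b carry the ISRE letters more than once, Gbp2 carries them once, and Cxcl9 has no match to either motif in this window.
Isg15, GRCm38.p6 chr4:156200819-156201068, minus strand: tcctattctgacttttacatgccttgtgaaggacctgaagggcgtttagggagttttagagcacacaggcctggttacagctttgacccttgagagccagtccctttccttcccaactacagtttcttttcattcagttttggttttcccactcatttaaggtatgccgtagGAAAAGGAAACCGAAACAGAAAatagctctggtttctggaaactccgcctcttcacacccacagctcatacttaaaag
Ifit1, GRCm38.p6 chr19:34640639-34640888, plus strand: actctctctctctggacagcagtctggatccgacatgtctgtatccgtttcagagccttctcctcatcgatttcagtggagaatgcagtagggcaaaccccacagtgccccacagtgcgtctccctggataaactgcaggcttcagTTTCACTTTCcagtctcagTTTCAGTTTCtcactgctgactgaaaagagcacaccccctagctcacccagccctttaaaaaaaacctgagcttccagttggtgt
Ifit3, GRCm38.p6 chr19:34583279-34583528, plus strand: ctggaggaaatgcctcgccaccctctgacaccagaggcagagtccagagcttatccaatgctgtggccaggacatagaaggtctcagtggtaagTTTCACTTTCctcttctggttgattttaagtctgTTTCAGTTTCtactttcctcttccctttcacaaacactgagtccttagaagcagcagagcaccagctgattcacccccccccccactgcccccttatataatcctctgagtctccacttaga
Ifit3b, GRCm38.p6 chr19:34607707-34607956, plus strand: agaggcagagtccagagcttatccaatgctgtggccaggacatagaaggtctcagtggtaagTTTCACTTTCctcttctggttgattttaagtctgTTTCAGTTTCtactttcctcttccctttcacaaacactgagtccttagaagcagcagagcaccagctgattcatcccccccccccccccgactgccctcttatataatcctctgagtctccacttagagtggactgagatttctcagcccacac
Gbp2, GRCm38.p6 chr3:142620413-142620662, plus strand: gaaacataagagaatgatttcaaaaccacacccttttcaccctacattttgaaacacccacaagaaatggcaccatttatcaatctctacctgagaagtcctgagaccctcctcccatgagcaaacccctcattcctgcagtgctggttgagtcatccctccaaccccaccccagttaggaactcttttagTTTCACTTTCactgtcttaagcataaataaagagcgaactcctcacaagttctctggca
Cxcl9, GRCm38.p6 chr5:92328080-92328329, minus strand: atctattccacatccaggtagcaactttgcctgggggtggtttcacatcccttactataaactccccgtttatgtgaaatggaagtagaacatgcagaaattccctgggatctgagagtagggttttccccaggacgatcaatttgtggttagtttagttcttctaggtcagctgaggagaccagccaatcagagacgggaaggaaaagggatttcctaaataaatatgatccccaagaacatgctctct
Isg15 has 3 matches that overlap in 1 run, starting 78, 72 and 66 bases before the start site. Ifit1 has 2, at 104 and 85 bases, and Gbp2 has 1, at 59 bases. The promoters of Ifit3 and Ifit3b share 188 of 218 bases (86.2%) when aligned with a shift of 32 bases, and both hold the same pair of ISRE matches. Those of Oas1a and Oas1g shared 158 of 248 bases (63.7%), and those of Phf11b and Phf11d 85 of 200 (42.5%). These alignments allowed a shift but no gaps. An inserted or missing base puts the rest out of step, so the shares can understate the likeness. Each pair is paralogous, its transcripts were not compared here, and the split of reads within it is uncertain.

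Each unique molecular identifier (UMI) counts 1 captured transcript end. The anti-CD40 library held 7087 barcodes and the isotype library 4908, of which 4278 anti-CD40 and 2558 isotype cells were kept (at least 200 genes and under 10% mitochondrial UMIs). The median kept cell had 8284.5 UMIs in the anti-CD40 library and 5446 in the isotype library. The libraries shared 13 barcode names. Cells were placed in 10 classes by marker genes. The anti-CD40 library had 2409 macrophages, 283 neutrophils, 118 classical monocytes and 141 NK cells, and the isotype library had 811, 129, 103 and 131. These 4 classes had at least 50 cells in each library and are compared, and the other 6 are given as values. With 1 library per group there is no replicate and no test: the 95% intervals cover counting error only, not differences between mice or between library preparations.

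In macrophages, the 31 genes were higher together in the anti-CD40 library. They summed to 153100 UMIs, or 4763 UMIs per 1000000 UMIs (CPM), in anti-CD40 macrophages, against 10354 UMIs, or 1359 CPM, in isotype macrophages, a ratio of 3.50 (interval 3.43 to 3.57). Each of the 31 genes had a ratio whose interval lay above 1. The share of all genes with such an interval was not computed for any class. Counts of intervals given here and below therefore have no background to be read against. With 10 CPM added to both sides to steady low counts, 26 of the 31 were at least 2-fold higher in anti-CD40 macrophages, against 2.14% of all 12300 genes tested. None of the 31 was at least 2-fold lower, where 2.61% of all genes were. The median log2 ratio was 1.56 for the 31 genes and −0.11 for all genes. Gbp2 had 677 CPM in anti-CD40 macrophages and 17.3 CPM in isotype macrophages (39.1-fold, 32.9 to 46.7). Cxcl9 had 1552 CPM in anti-CD40 and 1.71 CPM in isotype macrophages (909-fold, 532 to 1708), and with 10 CPM added no antiviral gene had a log2 ratio as high as Gbp2's (4.65).

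**Figure D1:**
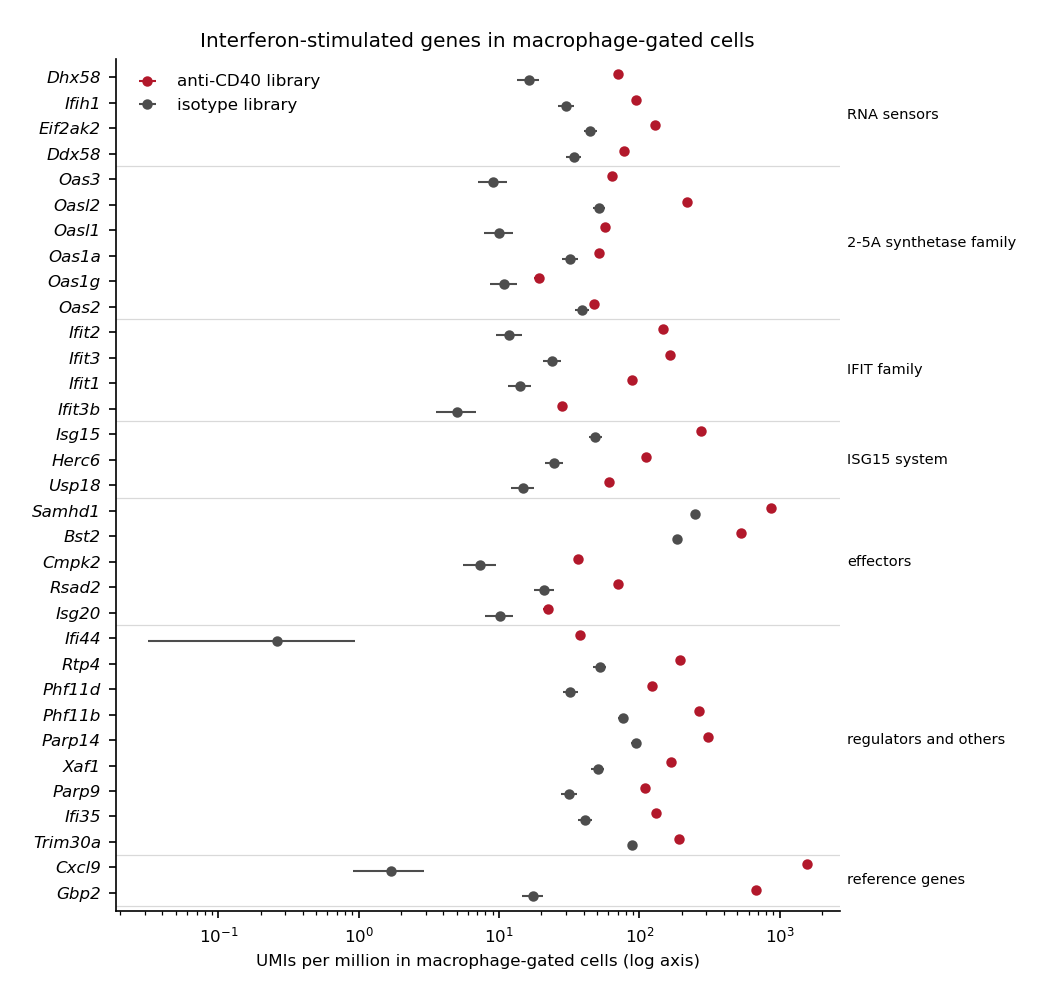
Level of each gene in macrophages, in CPM on a log axis, with the anti-CD40 library in red and the isotype library in grey. Bars are exact Poisson 95% intervals (counting error only), and genes are grouped by role. The red point lies right of the grey one for every gene, by little for Oas2 (47.6 CPM in anti-CD40 and 39.3 CPM in isotype cells) and by most for Ifi44 and the reference gene Cxcl9.

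The IFIT proteins bind viral RNA and block its translation, and theirs was the role group with the highest summed ratio in macrophages. The 4 genes summed to 429 CPM in anti-CD40 macrophages and 54.6 CPM in isotype macrophages (7.86-fold, 7.13 to 8.69). Ifit2 stood at 148 CPM in the anti-CD40 library against 11.8 CPM in the isotype library (12.5-fold). Ifit3 had 165 CPM in anti-CD40 and 23.8 CPM in isotype cells (6.95-fold), Ifit1, which binds foreign cap structures, had 88.5 CPM in anti-CD40 and 14 CPM in isotype cells (6.30-fold), and Ifit3b had 28.2 CPM in anti-CD40 and 4.99 CPM in isotype cells (5.66-fold). All 4 passed the 2-fold line.

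Isg15 is a ubiquitin-like protein that is attached to other proteins, Herc6 is the ligase that attaches it in the mouse, and Usp18 removes it and damps signalling at the interferon receptor. Isg15 reached 275 CPM in anti-CD40 macrophages and 48.6 CPM in isotype macrophages, a ratio of 5.66 (5.10 to 6.30). Herc6 had 111 CPM in anti-CD40 and 24.7 CPM in isotype cells (4.50-fold) and Usp18 60.8 CPM in anti-CD40 and 14.8 CPM in isotype cells (4.10-fold). The attached protein, its ligase and its remover were all more than 2-fold higher in the anti-CD40 library.

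Some but not all proteins of the oligoadenylate synthetase family make the messenger that activates RNase L, which cuts viral RNA. The genes of the family were uneven. Oas3 had 63.4 CPM in anti-CD40 macrophages and 9.06 CPM in isotype macrophages (7.0-fold), Oasl1 56.5 CPM in anti-CD40 and 9.98 CPM in isotype cells (5.66-fold) and Oasl2 219 CPM in anti-CD40 and 51.7 CPM in isotype cells (4.22-fold). Oas1g had 19.3 CPM in anti-CD40 and 10.8 CPM in isotype cells (1.79-fold), Oas1a 51.4 CPM in anti-CD40 and 32.2 CPM in isotype cells (1.60-fold) and Oas2 47.6 CPM in anti-CD40 and 39.3 CPM in isotype cells (1.21-fold, 1.07 to 1.38). Within this family, 3 of 6 passed the 2-fold line, and the intervals of Oas3, Oasl1 and Oasl2 lay above those of the other 3.

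The RNA sensors detect viral RNA in the cytoplasm. Dhx58 (LGP2) had the highest ratio of the 4, with 71.0 CPM in anti-CD40 macrophages and 16.3 CPM in isotype macrophages (4.36-fold). Ifih1 (MDA5) had 94.1 CPM in anti-CD40 and 30.1 CPM in isotype cells (3.13-fold), and Eif2ak2, the kinase PKR that halts translation on binding double-stranded RNA, had 129 CPM in anti-CD40 and 44.6 CPM in isotype cells (2.89-fold). Ddx58 (RIG-I) had 77.4 CPM in anti-CD40 and 34.1 CPM in isotype cells, a ratio of 2.27 that fell just under the 2-fold line once 10 CPM was added (log2 ratio 0.985), while Trim30a, at a log2 ratio of 1.02, lay just over it.

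Samhd1, which breaks down the nucleotides that retroviruses need, was the most abundant of the 31 genes, with 872 CPM in anti-CD40 macrophages and 249 CPM in isotype macrophages (3.51-fold). Without it the summed ratio of the other 30 genes was again 3.50. Bst2, the tetherin protein that holds budding virus on the cell surface, had 530.2 CPM in anti-CD40 and 184 CPM in isotype cells (2.88-fold). Cmpk2, a mitochondrial nucleotide kinase, had 36.8 CPM in anti-CD40 and 7.35 CPM in isotype cells (5.00-fold) and Rsad2 (viperin), which makes a chain-terminating nucleotide, had 70.9 CPM in anti-CD40 and 21.0 CPM in isotype cells (3.38-fold). Isg20, an RNA exonuclease, had 22.3 CPM in anti-CD40 and 10.1 CPM in isotype cells (2.20-fold) and stayed under the 2-fold line with 10 CPM added.

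Ifi44 had the highest ratio of the 31 genes, and the only one above that of Gbp2. It had 1219 UMIs in anti-CD40 macrophages (37.9 CPM) and 2 UMIs in isotype macrophages (0.263 CPM), a ratio of 144 whose counting interval ran from 39.9 to 1194. The isotype level rests on those 2 UMIs, and with 10 CPM added the log2 ratio was 2.22, below that of Ifit2 (2.85). The other regulators lay closer together. Parp9 and Parp14 are ADP-ribosyltransferases, Xaf1 acts on an inhibitor of apoptosis, Rtp4 helps receptors reach the membrane, Trim30a restrains inflammatory signalling in the mouse, and Ifi35 is an interferon-induced leucine zipper protein. Parp14 had 306 CPM in anti-CD40 macrophages and 93.9 CPM in isotype macrophages, and Phf11b 264 CPM in anti-CD40 and 76.9 CPM in isotype cells. The ratios of the 8 regulators other than Ifi44 ran between 2.15 (Trim30a) and 3.82 (Phf11d), and all passed the 2-fold line.

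Macrophages differed between the libraries in more than these genes. Apoe, a lipid carrier and macrophage marker, had 2682 CPM in anti-CD40 macrophages and 14636 CPM in isotype macrophages, and the B cell marker list summed to 228 CPM in anti-CD40 and 607 CPM in isotype cells, with 0 of its 7 genes higher in the anti-CD40 library. Their part in the ratios was not tested. When cells were clustered instead, the cluster named macrophage with 869 anti-CD40 cells had 8 isotype cells, and the one with 647 isotype cells had 43 anti-CD40 cells. Clusters of this name held 912 anti-CD40 and 655 isotype cells, fewer than the 2409 and 811 gated macrophages. A cluster left unnamed held 944 anti-CD40 and 47 isotype cells, with Ccr2, Spp1 and Mmp12 among its leading genes. Resident macrophages were told apart by at least 2 of the markers Timd4, Lyve1, Folr2 and Cd163. In those cells the 31 genes summed to 5264 CPM in the anti-CD40 library (519 cells) and 1330 CPM in the isotype library (377 cells), a ratio of 3.96 (3.85 to 4.07). In the other macrophages they summed to 4590 CPM (1890 cells) and 1402 CPM (434 cells), a ratio of 3.27 (3.18 to 3.37). Both sets of macrophages carried the difference.

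Neutrophils had the highest summed level of the 31 genes in the anti-CD40 library, as a share of UMIs (CPM). The sum was 13255 CPM in anti-CD40 neutrophils and 2187 CPM in isotype neutrophils, a ratio of 6.06 (5.67 to 6.49), and the interval lay above 1 for 29 of the 31 genes, Ifi44 and Phf11d being the others. The 2-fold line was passed by 28 of 28 genes with at least 30 UMIs over both libraries, against 9.18% of all 4225 genes tested, and none was 2-fold lower, against 8.71%. Of those 28, 21 reached 30 UMIs only with the anti-CD40 counts added, a filter that favours genes higher there. All 7 that had 30 UMIs in isotype neutrophils alone were also at least 2-fold higher. Oas1g, Ifi44 and Phf11d had too few UMIs to be counted.

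In the anti-CD40 library, 24 of the 31 genes had a higher CPM in neutrophils than in macrophages. The share of all genes higher in neutrophils was not computed, so this count has no background. The median anti-CD40 neutrophil held 3117 UMIs and the median anti-CD40 macrophage 10978. A higher CPM therefore need not mean more transcripts per cell. Samhd1 had 2924 CPM in anti-CD40 neutrophils against 657 CPM in isotype neutrophils (4.45-fold), Isg15 had 1592 CPM in anti-CD40 and 259 CPM in isotype cells (6.16-fold), and Oasl2 had 1149 CPM in anti-CD40 and 155 CPM in isotype cells (7.43-fold). Herc6 had 341 CPM in the anti-CD40 library and 7.25 CPM, from 3 UMIs, in the isotype library. Eif2ak2 had 134 CPM in anti-CD40 and 12.1 CPM in isotype cells and Ifih1 205 CPM in anti-CD40 and 31.4 CPM in isotype cells. Parp14 had 422 CPM in anti-CD40 and 43.5 CPM in isotype cells, Bst2 164 CPM in anti-CD40 and 16.9 CPM in isotype cells and Oas3 253 CPM in anti-CD40 and 74.9 CPM in isotype cells. Gbp2 reached 3534 CPM in anti-CD40 neutrophils and 19.3 CPM in isotype neutrophils (183-fold, 92.7 to 424), again above every antiviral gene. Cxcl9 was at 155 CPM in anti-CD40 neutrophils and at 0 UMIs in isotype neutrophils (exact upper limit 8.91 CPM).

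The IFIT genes show how few isotype cells can carry a sum. They had 2139 UMIs in 255 of 283 anti-CD40 neutrophils (2009 CPM) and 29 UMIs in 5 of 129 isotype neutrophils (70.1 CPM), a ratio of 28.7 (19.9 to 42.9). Of the 29 isotype UMIs, 22 (75.9%) came from 1 cell. Without the cell with the most IFIT UMIs in each library, an alternative added after seeing the data, the counts were 2091 and 7 UMIs and the ratio was 113.7 (55.1 to 283). Thinned to 1000 UMIs per cell, 203 of 276 anti-CD40 neutrophils (73.6%) held an IFIT UMI, against 2 of 118 isotype neutrophils (1.69%). In NK cells, the class with the lowest summed level in the anti-CD40 library, the same share was 5.71% of 140 anti-CD40 cells and 0.806% of 124 isotype cells. Median depth was 3117 UMIs per cell in anti-CD40 neutrophils and 3102 in isotype neutrophils, and 7459 and 4732 in anti-CD40 and isotype NK cells.

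Neutrophils of the libraries also differed in their own markers. The marker Lcn2, an iron-binding granule protein, had 2524 CPM in anti-CD40 neutrophils and 834 CPM in isotype neutrophils. The granulocyte growth factor receptor Csf3r had 987 CPM in anti-CD40 and 1933 CPM in isotype cells, and the protease Mmp9 833 CPM in anti-CD40 and 1344 CPM in isotype cells. The macrophage marker list summed to 1538 CPM in anti-CD40 and 1899.5 CPM in isotype cells and the classical monocyte list to 5393 CPM in anti-CD40 and 2351 CPM in isotype cells, with 6 of its 7 genes higher in the anti-CD40 library and Vcan at 0 in isotype neutrophils. In the clustering, clusters named neutrophil held 529 anti-CD40 and 266 isotype cells, against 283 and 129 gated neutrophils. Where the gated cells fell among them was not computed. Of these clusters, those with 278 and 216 anti-CD40 cells had 4 and 0 isotype cells. Those with 167 and 95 isotype cells had 34 and 1 anti-CD40 cells. The part of these differences in the ratios was not tested.

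**Figure D2:**
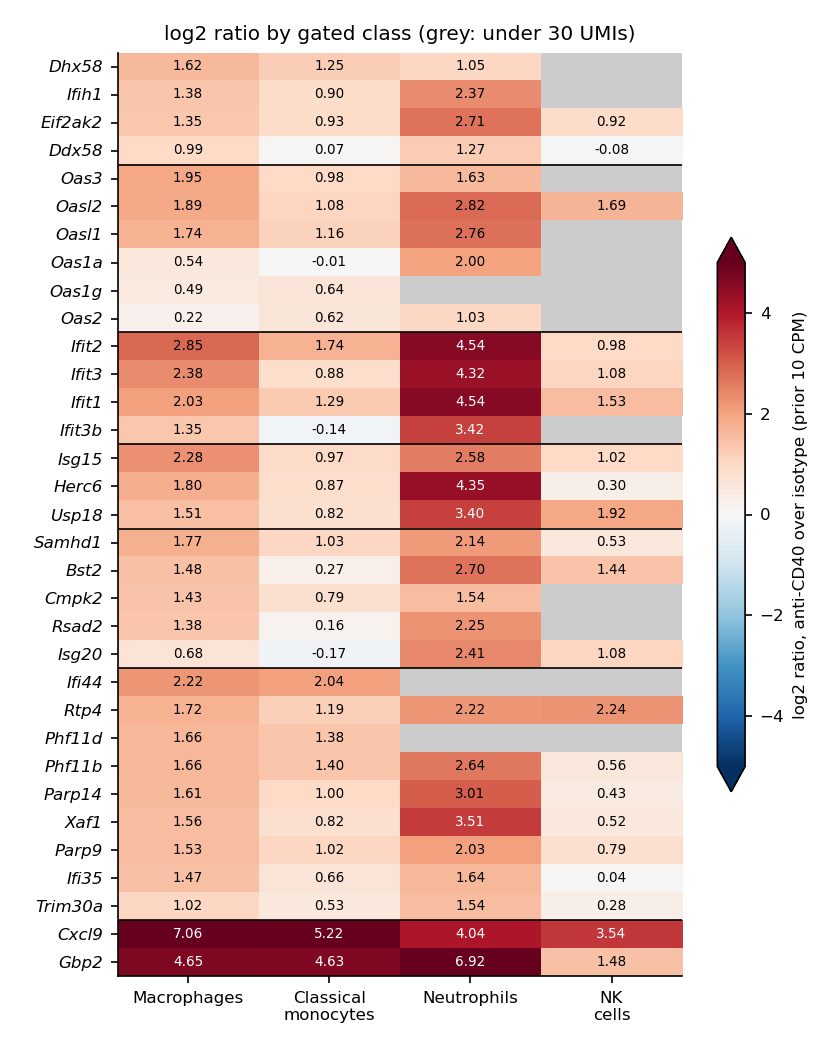
Log2 ratio of each gene in the 4 compared classes, anti-CD40 over isotype, with 10 CPM added to both; the colour scale is capped at 5 and grey cells had under 30 UMIs. Neutrophils are the reddest column, with IFIT genes between 3.42 and 4.54, and the reference genes Cxcl9 and Gbp2 at the bottom exceed every antiviral gene in macrophages and classical monocytes.

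Classical monocytes differed less. The 31 genes summed to 4838 CPM in anti-CD40 classical monocytes, close to anti-CD40 macrophages, and to 2491 CPM in isotype classical monocytes, above isotype macrophages, a ratio of 1.94 (1.86 to 2.03). The classical monocytes of the libraries also differed in markers. Ly6c2, a surface marker of these cells, had 2869 CPM in anti-CD40 and 981 CPM in isotype monocytes, and F13a1, a clotting factor subunit, 232 CPM in anti-CD40 and 608 CPM in isotype monocytes. The neutrophil list summed to 1469 CPM in anti-CD40 and 620 CPM in isotype monocytes, with 3 of its 7 genes higher in the anti-CD40 library, and the macrophage list to 2489 CPM in anti-CD40 and 5212 CPM in isotype monocytes, with 3 of its 9 genes higher. In the clustering, the cluster of this name with 64 anti-CD40 cells had 3 isotype cells, and the one with 73 isotype cells had 0 anti-CD40 cells. The part of these differences in the ratios was not tested. The interval lay above 1 for 26 genes. The 2-fold line was passed by 11 of 31 genes, against 3% of all 7165 genes tested, and none was 2-fold lower, against 4.02%. Of those 31, 7 reached 30 UMIs only with the anti-CD40 counts added. Of the 24 with 30 UMIs in isotype classical monocytes alone, 8 passed the line. The median log2 ratio was 0.90 for the 31 genes and −0.09 for all genes. The count depends on settings, since it was 18 with TMM scaling, and after thinning 3 of the 7 genes that still had 30 UMIs. Gbp2 differed more, with 1261 CPM in anti-CD40 monocytes and 41.4 CPM in isotype monocytes (30.5-fold, 23.0 to 41.2).

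Ifi44 again had the highest ratio among the 31 genes in classical monocytes, with 71.8 CPM in the anti-CD40 library and 9.93 CPM in the isotype library (7.24-fold, 3.97 to 14.5). Ifit2 had 101 CPM in anti-CD40 and 23.2 CPM in isotype cells (4.35-fold), while Ifit3 had 90.9 CPM in anti-CD40 and 44.7 CPM in isotype cells (2.03-fold). Phf11b had 217 CPM in anti-CD40 and 76.1 CPM in isotype cells, Oasl2 211 CPM in anti-CD40 and 94.3 CPM in isotype cells, Samhd1 1456 CPM in anti-CD40 and 709.7 CPM in isotype cells, and Isg15 282 CPM in anti-CD40 and 139.8 CPM in isotype cells. Oas3, Herc6, Eif2ak2, Ifih1 and Parp14 had ratios between 2.03 and 2.20. Bst2 had 389 CPM in anti-CD40 and 322 CPM in isotype cells, a ratio of 1.21 (1.06 to 1.38). Isg20, Ifit3b and Oas1a had ratios of 0.852, 0.852 and 0.994, each with an interval that included 1. As in neutrophils, 1 isotype cell weighed on the IFIT sum, holding 47 of 138 UMIs (34.1%). The IFIT ratio was 2.57 (2.11 to 3.14).

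NK cells had the lowest summed levels of the compared classes. The sum was 1373 CPM in anti-CD40 NK cells and 758 CPM in isotype NK cells, a ratio of 1.81 (1.64 to 2.01), and the interval lay above 1 for 14 of 31 genes. The 2-fold line was passed by 8 of 19 genes with enough UMIs, against 4.20% of all 6641 genes tested, and 13 of those 19 reached 30 UMIs only with the anti-CD40 counts added. Of the 6 with 30 UMIs in isotype NK cells alone, 0 passed the line. None was 2-fold lower, against 5.06% of all genes. Rtp4 had 59.3 CPM in anti-CD40 NK cells and 4.62 CPM in isotype NK cells (12.8-fold, 4.22 to 63.5), and Bst2 had 113 CPM in anti-CD40 and 35.4 CPM in isotype cells (3.19-fold). Samhd1 had 198 CPM in anti-CD40 and 134 CPM in isotype cells (1.48-fold) and Isg15 66.3 CPM in anti-CD40 and 27.7 CPM in isotype cells (2.39-fold), while Ddx58 had 67.8 CPM in anti-CD40 and 72.4 CPM in isotype cells (0.937, 0.650 to 1.37). Gbp2 itself was at 95.1 CPM in anti-CD40 and 27.7 CPM in isotype cells (3.43-fold, 2.08 to 5.98), and here 4 antiviral genes had a log2 ratio at or above its own. NK cells of the libraries also differed in markers, with 1 of their 7 marker genes, Gzma, higher in the anti-CD40 library. Eomes had 99.0 CPM in anti-CD40 and 322 CPM in isotype cells, and Klra8 249 and 743 CPM. Clusters of this name had 108 and 48 anti-CD40 cells and 115 and 11 isotype cells. How far these differences enter the NK ratios was not tested.

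Of the smaller classes, endothelial cells and fibroblasts, which are not leukocytes, had high ratios. The 31 genes summed to 8452 CPM in 72 anti-CD40 endothelial cells and 1840 CPM in 47 isotype endothelial cells (4.59-fold, 4.15 to 5.09). Bst2 was highest there, at 1448 CPM in anti-CD40 and 511 CPM in isotype cells. Endothelial IFIT genes summed to 1089 CPM in anti-CD40 and 69.9 CPM in isotype cells (15.6-fold, 9.49 to 27.5). The sum was 4421 CPM in 54 anti-CD40 fibroblasts and 687 CPM in 35 isotype fibroblasts (6.43-fold, 5.70 to 7.29), with Bst2 at 934 CPM in anti-CD40 and 115 CPM in isotype cells and Samhd1 at 453 CPM in anti-CD40 and 25.3 CPM in isotype cells. Endothelial Cxcl9, at 4455 CPM in anti-CD40 and 52.4 CPM in isotype cells, was the highest Cxcl9 level of any class, whereas fibroblasts had 107 CPM in the anti-CD40 library and 0 UMIs in the isotype library (exact upper limit 8.48 CPM).

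The remaining classes held fewer cells. Nonclassical monocytes (40 cells in each library) summed to 5653 CPM in anti-CD40 and 1520 CPM in isotype cells (3.72-fold, 3.28 to 4.22), and their IFIT genes had 49 UMIs in the anti-CD40 library and 0 in the isotype library (306 CPM in anti-CD40 cells, exact upper limit of 16.3 CPM in isotype cells). Dendritic cells (16 anti-CD40 and 37 isotype) summed to 2318 CPM in anti-CD40 and 781 CPM in isotype cells (2.97-fold, 2.65 to 3.32). A single anti-CD40 dendritic cell held 109 of the 761 anti-CD40 UMIs (14.3%). Dendritic markers also differed, with 3 of 7 higher in the anti-CD40 library. Cd209a had 48.7 CPM in anti-CD40 and 616 CPM in isotype cells, and Xcr1 417 and 172 CPM. The part of these marker differences in the dendritic cell ratio was not tested. B cells (19 anti-CD40 and 466 isotype) summed to 2345 CPM in anti-CD40 and 991 CPM in isotype cells (2.37-fold, 2.11 to 2.65). T cells (153 anti-CD40 and 40 isotype) had 1964 CPM in anti-CD40 and 1253 CPM in isotype cells (1.57-fold, 1.40 to 1.76), with an interval that overlapped that of NK cells, and 1 isotype T cell held 83 of the 343 isotype UMIs (24.2%). Their IFIT genes had 109 CPM in anti-CD40 and 106 CPM in isotype cells, a ratio of 1.03 (0.679 to 1.60), and 1 isotype T cell held 13 of the 29 isotype IFIT UMIs. Their RNA sensors had 171 CPM in anti-CD40 and 58.5 CPM in isotype cells (2.93-fold, 1.76 to 5.23). T cells of the libraries also differed in markers, with 5 of their 8 marker genes higher in the anti-CD40 library. Cd8a had 581 CPM in anti-CD40 and 132 CPM in isotype cells, and Cd4 16.3 and 62.1 CPM. A T cell cluster with Ifng among its leading genes had 85 anti-CD40 and 0 isotype cells. How far these differences enter the T cell ratios was not tested. Across all 10 classes, the interval lay below 1 for 0 of the 31 genes, a count without the share of all genes beside it.

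The 12 genes followed in every class kept no single order. Samhd1 had the highest level of the 12 in anti-CD40 macrophages, neutrophils and classical monocytes, and Bst2 had it in endothelial cells and fibroblasts. Phf11b had 178 CPM in anti-CD40 T cells and 51.2 CPM in isotype T cells (3.49-fold, 2.03 to 6.5), above its 67.6 CPM in anti-CD40 neutrophils, where isotype neutrophils had 1 UMI. Herc6 had 315 CPM in anti-CD40 and 56.8 CPM in isotype endothelial cells, and 56.1 CPM in anti-CD40 and 62.1 CPM in isotype T cells, where its interval (0.522 to 1.65) included 1. Oas3 had 7.17 CPM, from 3 UMIs, in anti-CD40 endothelial cells and 0 UMIs in isotype ones, whereas Oasl2 had 236 CPM in anti-CD40 and 30.6 CPM in isotype cells there.

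Cells were thinned to 1000 UMIs to see whether few or many carried the genes. Shallower cells were left out, 55 anti-CD40 and 57 isotype macrophages and 7 anti-CD40 and 11 isotype neutrophils. Anti-CD40 macrophages held a mean of 4.76 UMIs of the 31 genes per 1000 (median 4, 4.08% of cells with none), and isotype macrophages a mean of 1.32 (median 1, 34.6% with none). Anti-CD40 neutrophils held a mean of 14.8 (median 14), and 0 of 276 cells had none (exact interval up to 1.33%). Isotype neutrophils held a mean of 1.99 (median 1), and 26.3% had none. At least 10 UMIs per 1000 were held by 208 of 276 anti-CD40 neutrophils (75.4%) and 3 of 118 isotype neutrophils (2.54%), and by 184 of 2354 anti-CD40 macrophages (7.82%) and 5 of 754 isotype macrophages (0.663%). In both classes, fewer anti-CD40 than isotype cells held none and more held 10 or more.

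**Figure D3:**
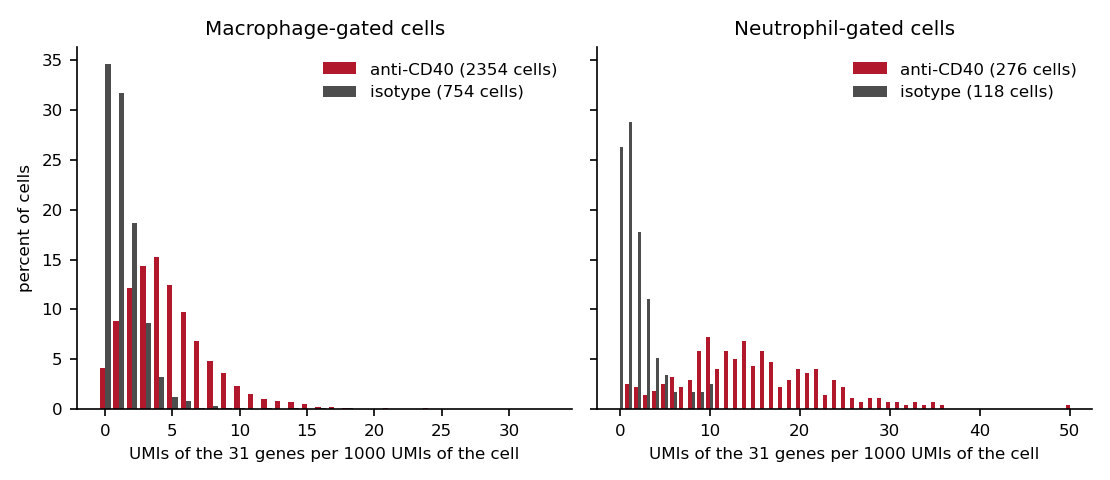
UMIs of the 31 genes per cell after thinning to 1000 UMIs, as percent of cells in each library, for macrophages (left) and neutrophils (right), with anti-CD40 in red and isotype in grey. Macrophage distributions overlap around medians of 4 and 1, while most anti-CD40 neutrophils lie at 10 or more and most isotype neutrophils at 3 or fewer.

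Some isotype classes held single cells with many UMIs of the 31 genes. The variance of the thinned count divided by its mean was 2.57 in anti-CD40 classical monocytes and 5.56 in isotype classical monocytes, and 2.15 in anti-CD40 T cells and 6.86 in isotype T cells. The order was the other way in neutrophils (4.08 in anti-CD40 and 2.68 in isotype cells) and endothelial cells (1.81 in anti-CD40 and 1.02 in isotype cells), and also in macrophages, nonclassical monocytes, NK cells and fibroblasts. One isotype classical monocyte held 245 of 3012 (8.13%). Within the anti-CD40 library, the rank correlation over cells between the thinned count and Gbp2 was 0.47 in neutrophils (276 cells) and 0.54 in endothelial cells (67 cells). It was 0.36 in classical monocytes (118 cells), 0.33 in fibroblasts (54 cells) and 0.13 in macrophages (2354 cells). T cells (149 cells) had 0.12 and NK cells (140 cells) −0.08. After thinning, Gbp2 was seen in 88.0% of neutrophils, 73.1% of endothelial cells, 52.5% of classical monocytes and 50% of fibroblasts. It was seen in 42.1% of macrophages, 17.4% of T cells and 7.14% of NK cells. With Cxcl9 the correlation was 0.34 in endothelial cells, 0.086 in macrophages, 0.068 in NK cells and 0.013 in classical monocytes. Neutrophils had 0.008, T cells −0.05 and fibroblasts −0.08 with Cxcl9. Cxcl9 was seen in 65.7% of thinned endothelial cells, 46.3% of macrophages and 28.8% of classical monocytes. In neutrophils, T cells, fibroblasts and NK cells the shares were 12.3%, 10.1%, 7.41% and 5.71%. Where few cells held the reference gene, a low correlation does not show that the levels are unrelated. The correlations are descriptions over cells of 1 library, which share its preparation and counting noise.

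Free RNA in droplets can carry transcripts of abundant cells into others, so each class was set beside macrophages of the same library. The macrophage genes C1qa, C1qb and C1qc stood in anti-CD40 neutrophils at 6.16% of their macrophage level, in NK cells at 3.86%, in T cells at 4.92% and in endothelial cells at 4.17%. Macrophages were gated to hold at least 30 C1q UMIs per 10000 and the other classes to hold fewer. These shares are therefore largely set by the gate. The 31 genes summed to 278%, 28.8%, 41.2% and 177% of the macrophage CPM in those classes. Each of the 31 genes stood above the C1q share in anti-CD40 neutrophils, NK cells, T cells, endothelial cells and fibroblasts. The same held in both monocyte classes of that library. So did 30 of 31 genes in dendritic cells and 29 of 31 in B cells, where the lowest gene was at 0. The share of all genes above the C1q share was not computed, and the part of free RNA was not tested. Cxcl9 stood at 9.98% in neutrophils, 6.83% in NK cells and 5.25% in T cells, near the C1q share, and at 287% in endothelial cells.

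**Figure D4:**
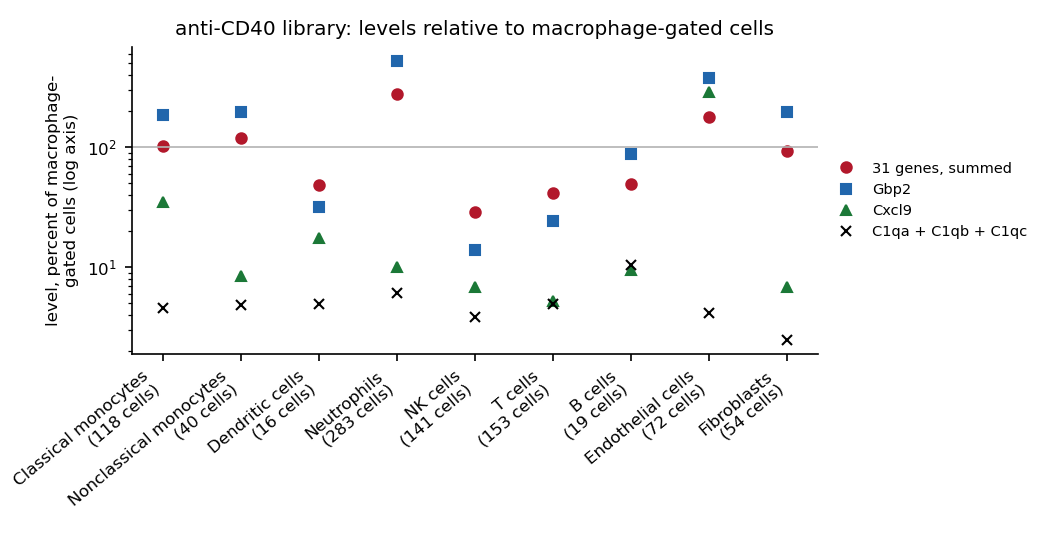
Levels (CPM) in the anti-CD40 library as percent of the level in macrophages of that library (log axis, line at 100), by class, for the summed 31 genes, Gbp2, Cxcl9 and the summed C1q genes. The 31 genes lie above the C1q mark, which the gate keeps low, in every class. In neutrophils they stand at 278% beside Cxcl9 at 9.98%.

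One of the 31 genes could be read as protein. The panel of 198 antibody tags held CD317, the product of Bst2, and 9 control tags. In macrophages the CD317 tag took 20036 of every 1000000 tag UMIs in the anti-CD40 library and 4568 in the isotype library, a ratio of 4.39 (4.32 to 4.45), with a median of 59 tag UMIs per anti-CD40 cell and 12 per isotype cell. The median control tag stood at 39.8 of 1000000 in anti-CD40 and 56.6 in isotype macrophages, so against them the ratio was 6.23. Anti-CD40 neutrophils had 7094 of 1000000 and isotype neutrophils 1496 (4.74-fold), and anti-CD40 NK cells had 9511 and isotype NK cells 2213 (4.30-fold, or 8.53-fold over the control tags). The NK sums rest on few cells, since the median anti-CD40 NK cell held 3 tag UMIs (upper quartile 5) and the median isotype NK cell 1. Anti-CD40 endothelial cells had 78968 and isotype endothelial cells 34173 (2.31-fold), the highest of the classes as for the transcript. Anti-CD40 classical monocytes had 13796 of 1000000 and isotype ones 6770 (2.04-fold, 1.92 to 2.17), where the transcript ratio was 1.21. The median anti-CD40 classical monocyte held 26 tag UMIs and the median isotype one 4. Tag and transcript were higher in the anti-CD40 library in each of the 10 classes.

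**Figure D5:**
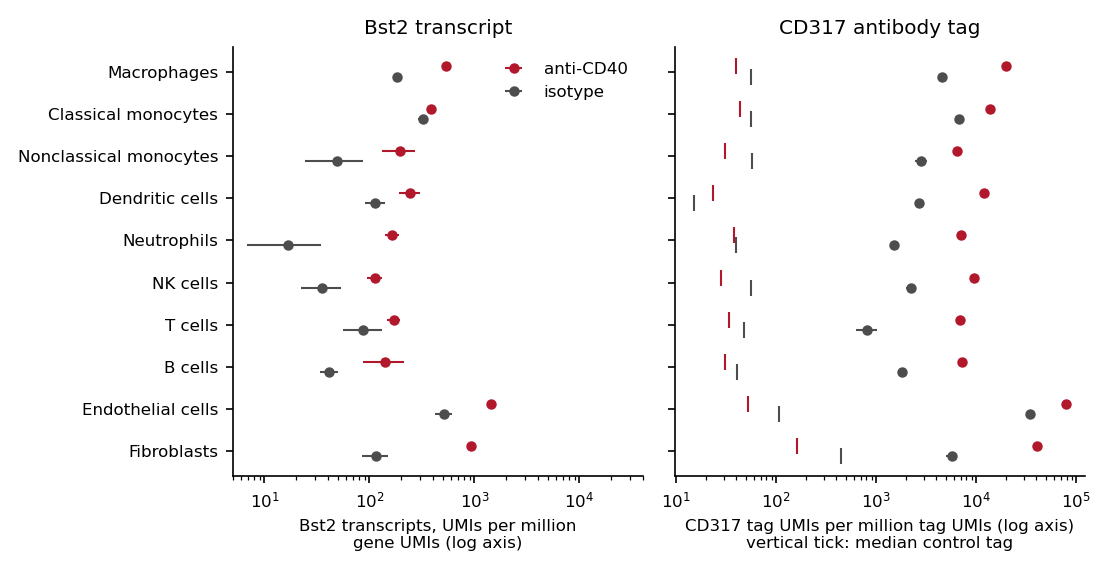
Bst2 transcript (left, CPM of gene UMIs) and CD317 antibody tag (right, CPM of tag UMIs) by class on log axes, anti-CD40 in red and isotype in grey, with exact Poisson 95% intervals. Vertical ticks mark the median control tag of each library. Red lies right of grey in both panels for each class, and endothelial cells are furthest right.

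Genes of the interferon pathway outside the 31 were described from a list of 42. In macrophages 23 had enough UMIs, 4 were at least 2-fold higher in the anti-CD40 cells (2.14% of all genes were), and 0 were lower. Those 4 were Irf7, an amplifier of type I interferon genes (log2 ratio 3.13, at 401 CPM in anti-CD40 and 37.0 CPM in isotype cells), the feedback inhibitor Socs1 (2.27), Irf1, a factor induced by interferon-gamma (1.89), and Stat2 (1.40). Irf9, the partner of Stat2, had 77.0 CPM in anti-CD40 and 73.5 CPM in isotype cells. The receptor genes Ifnar1 and Ifnar2 had log2 ratios of −0.12 and 0.07, and Ifngr1, a chain of the interferon-gamma receptor, had −0.69. In neutrophils 7 of 18 were higher (9.18% of all genes) and 0 lower, with Irf1 at 3.2, Irf7 at 3.12 and Stat2 at 2.52. As for the 31 genes, UMIs were summed over both libraries, a filter that can favour genes higher in anti-CD40 cells. In classical monocytes 2 of 20 were higher (3% of all genes) and 0 lower. In NK cells 1 of 20 was higher and 1, the receptor chain Il10rb (−1.06), was lower, shares near those of all genes (4.20% higher and 5.06% lower).

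Ligand transcripts were scarce for type I and type III interferons. The 20 ligand genes had 32 UMIs in all kept anti-CD40 cells and 21 in all kept isotype cells, and 15 of them were at 0 in both. In macrophages Ifnb1, which encodes interferon-beta, had 21 UMIs in the anti-CD40 library and 11 in the isotype library (ratio of CPM 0.452, 0.208 to 1.04). Ifng, which encodes interferon-gamma, had 391 UMIs (305 CPM) in anti-CD40 NK cells and 212 UMIs (327 CPM) in isotype NK cells, a ratio of CPM of 0.933 (0.788 to 1.11) whose interval included 1. It had 328 UMIs (297 CPM) in anti-CD40 T cells and 10 UMIs (36.5 CPM) in isotype T cells (8.13-fold, 4.37 to 17.1). The NK cells and the T cells of the libraries differed in their own markers, as given above. Secreted protein and cells outside the sort were not measured.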

How the data were processed

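CITE-seq (transcripts and antibody tags read from the same droplets) was run on a 5′ kit, and the authors deposited raw UMI counts for each gene and tag, with no normalization, per the file headers. The file headers name Cell Ranger 6.0.1 and the submitters' processing notes name Cell Ranger 3 and Seurat 3. A barcode was kept with 200 genes or more and less than 10% of its UMIs mitochondrial. Classes were set per cell by marker genes. The markers were listed with earlier results of these data known, as were the 31 genes and the pathway list, and the gate thresholds were set after seeing the data. One gene of the pathway list is not reported here. A macrophage had at least 30 C1q UMIs per 10000 and 5 macrophage markers. Cells with markers of more than 1 class (337 anti-CD40, 379 isotype) were set aside as possible doublets, no doublet caller was run, and 636 and 340 cells fitted no class. UMIs were summed per class and library and given as CPM. Ratios have exact conditional binomial intervals, levels exact Poisson intervals and shares exact Clopper-Pearson intervals, all at 95%. Genes were counted at 2-fold with 10 CPM added and at least 30 UMIs over both libraries. The 2 genes of each of 6 roles with the most UMIs were followed in every class. Steps were checked on simulated data. Software was Python 3.11.15, scanpy 1.11.5, scipy 1.17.1 and edgeR 4.0.16 (TMM factors only).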

Additional observations from a re-analysis of the deposited data

Results flagged for a closer look

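Barcodes with 10% or more mitochondrial UMIs were left out of every comparison, and the 31 genes were higher in the anti-CD40 library there too. They summed to 4176 CPM in anti-CD40 barcodes and 1144 CPM in isotype barcodes, a ratio of 3.65 (3.54 to 3.77), and the IFIT genes to 318 CPM in anti-CD40 and 16.1 CPM in isotype barcodes (19.7-fold, 15.4 to 25.6). This was listed because it is a signal in data outside the comparisons.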

How the results depend on the processing

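No paired analysis was possible because each group is 1 library. Other scalings moved the median of all genes by 0.31 (macrophages), 0.16 (classical monocytes), 0.32 (neutrophils) and 0.23 (NK cells) on the log2 scale with TMM, and by 0.31, 0.20, 0.36 and 0.22 with the median of ratios, so that ratios given here are lower by that much than under those scalings. Across 12 alternatives the count of genes at least 2-fold higher ran between 25 and 28 in macrophages and between 24 and 29 in neutrophils. In classical monocytes (11) it was 18 with TMM, 19 with the median of ratios, 20 with 1 CPM added, 17 with the mean of per-cell CPM, 24 at 1.5-fold, 6 with clusters and 3 after thinning, when 7 of the 31 genes could be counted. In NK cells (8 of 19 counted) it was 2 of 9 with a minimum of 100 UMIs, 4 of 15 with cells of 500 genes or more and less than 5% mitochondrial UMIs, and 0 of 1 after thinning. The median log2 ratio in macrophages (1.56) was 1.83 with TMM, 1.84 with the median of ratios and 1.81 with 1 CPM added. The summed ratio in macrophages (3.50) was 4.33 with TMM, 4.36 with the median of ratios and 3.66 with the stricter cell filter. It was 3.69 with cells carrying markers of another class kept, 3.61 after thinning and 3.72 with the mean of per-cell CPM. With clusters it was 3.67, from 912 anti-CD40 and 655 isotype cells in place of 2409 and 811. The CD317 tag ratio (4.39) was 6.23 over the control tags, and the IFIT ratio in neutrophils (28.7) was 113.7 without the top cell of each library. The median log2 ratio and the summed ratio in macrophages did not reverse, and the CD317 and IFIT ratios stayed above 1. A count of genes higher in one library cannot reverse, so for the counts only their size was compared. The causes of the shifts were not tested. Depth limits the smaller classes: only 10 of the 31 genes had 30 UMIs in nonclassical monocytes and in dendritic cells, 15 in B cells, 19 in NK cells and 20 in T cells, and for the others no 2-fold count was made.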
